A study of Mus musculus with 5 samples.

Results

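The genes described here are 40 genes of DNA replication and S phase, taken by symbol from a fixed list and found among the 55397 genes of the normalised count table (40 of 40 found). They were compared between 5 bulk RNA-seq libraries of mouse liver tumours, 2 of the Control group and 3 of a group with late overexpression of Prox1 (Prox1 OE). All mice were female C57BL/6N animals injected at 8 weeks of age through the tail vein, under high volume, so that hepatocytes took up plasmid DNA. Both groups received 4 µg of Sleeping Beauty transposase plasmid and 10 µg of the transposon plasmids for AKT and NICD, the active intracellular part of NOTCH, each behind the EF1a promoter. The NICD plasmid also carried rtTA, the doxycycline-dependent activator. The groups differed in a further 10 µg plasmid with a doxycycline-inducible Tre promoter, which carried FLAG-tagged mouse Prox1 with GFP (Prox1 OE) or GFP alone (Control). Both were given food with 6.25% doxycycline from day 21, for expression from week 3 to 4. Tumours were collected after a week of overexpression or when the animal reached a humane endpoint, and the labels do not say which applied to which tumour. The labels call the cells transformed hepatocytes, but whole dissected tumours were sequenced, so other liver and blood cells could contribute RNA.

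Replication begins with licensing. The origin recognition complex, CDC6 and CDT1 load the ring-shaped MCM2-7 helicase on DNA in G1, and in S phase CDC45 and the GINS complex join it to form the active helicase. Polymerase alpha with primase starts new strands, polymerases delta and epsilon extend them on the PCNA clamp, and ribonucleotide reductase supplies the building blocks. Adult hepatocytes are mostly out of the cell cycle and express little of this machinery, whereas dividing tumour cells express it strongly. Many of these genes are transcribed in a pulse at the G1/S border through E2F factors. In bulk tissue, fewer cells in S phase and less RNA per cell cannot be told apart.

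Prox1, the gene on the plasmid, was at 4153 and 4664 normalised counts in Control and at 48090, 11110 and 8231 in Prox1 OE, a log2 fold change of 1.90 ± 0.66 (SE; limma adjusted p = 0.061). All Prox1 OE values lay above both Control values, and replicate 1 stood far above the other two. Without that library the log2 fold change was 1.12 and Prox1 was called, and over the 16 alternatives it was called in 4, with log2 fold changes of 1.12 to 2.39 and adjusted p from 0.0013 to 0.21. Libraries held 48740863 to 56629477 reads, and the least covered member, Orc1, had at least 52 reads in each.

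Some replication genes were lower in the Prox1 OE tumours, and none was called higher. Of the 40 members, all of which passed the filter on low values, 17 fell, 0 rose and 23 were not called (limma on log2(normalised count + 1), Benjamini-Hochberg adjusted p under 0.05 over all 17105 genes tested). Over all genes tested, 16.2% were called lower and 17.1% higher, so that the 42.5% of members called lower stood above the background share. The median log2 fold change of the members was -0.45, from -1.13 to 0.23, against -0.02 over all genes tested, and 38 of the 40 were negative, against 51% of all genes. In 32 members every Prox1 OE library lay below both Control libraries, and in 1, Gins4, every one lay above, where 32.4% and 30.9% of all genes tested did so and 63.3% did either. A log2 fold change here is Prox1 OE minus Control on the log2(normalised count + 1) scale, where a normalised count is a read count divided by the size factor of its library.

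The count of 17 rested on few libraries. It was 0 without Control replicate 1, with 6 members at an unadjusted p under 0.05, where 3.63% of all genes were called lower. It was 5 without Control replicate 2 (5.54% of all genes), 8 without Prox1 OE replicate 2 (10.1%) and 7 without Prox1 OE replicate 3 (11.4%), and it was 19 without Prox1 OE replicate 1 (22%), so that the calls over all genes moved in the same direction. On the recovered reads it was 20 with DESeq2, where 19% of all genes were called lower and 20.1% higher, and 17 with edgeR (16.4% lower, 17.3% higher). Of the 17 calls, those of Prim2 (6 of 16 alternatives), Pcna and Fen1 (8 each), and Mcm5 and Lig1 (9 each) held least often. The median of the members stayed negative whichever library was left out, from -0.60 to -0.29. When total reads set the library size instead, the median log2 fold change over all genes was -0.45, and 8.59% of genes were called higher and 40% lower. The members' median then stood at -0.88 with 37 called lower (all but Mcm10, Gins4 and Ccne1). The distance between the members and all genes was -0.43 as before. That distance is no check on the scaling, since a new library size shifts every gene alike on the log2 scale.

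The members also differed between tumours of the same group. All 40 were higher in Control 1 than in Control 2, which held for 46.5% of all genes tested. Relative to the Control mean, the median member stood at 0.11 and -0.11 in Control 1 and 2 and at -0.39, -0.35 and -0.68 in Prox1 OE 1, 2 and 3 (log2). The highest value of the 5 libraries was in Control 1 for 37 members and the lowest in Prox1 OE 3, the Prox1 OE library with the least Prox1 RNA, for 34. Together the members took 0.216% and 0.171% of reads in Control and 0.111%, 0.111% and 0.0790% in Prox1 OE. The groups did not overlap in this share, and the smallest two-sided exact permutation p for 2 against 3 is 0.1.

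**Figure D1:**
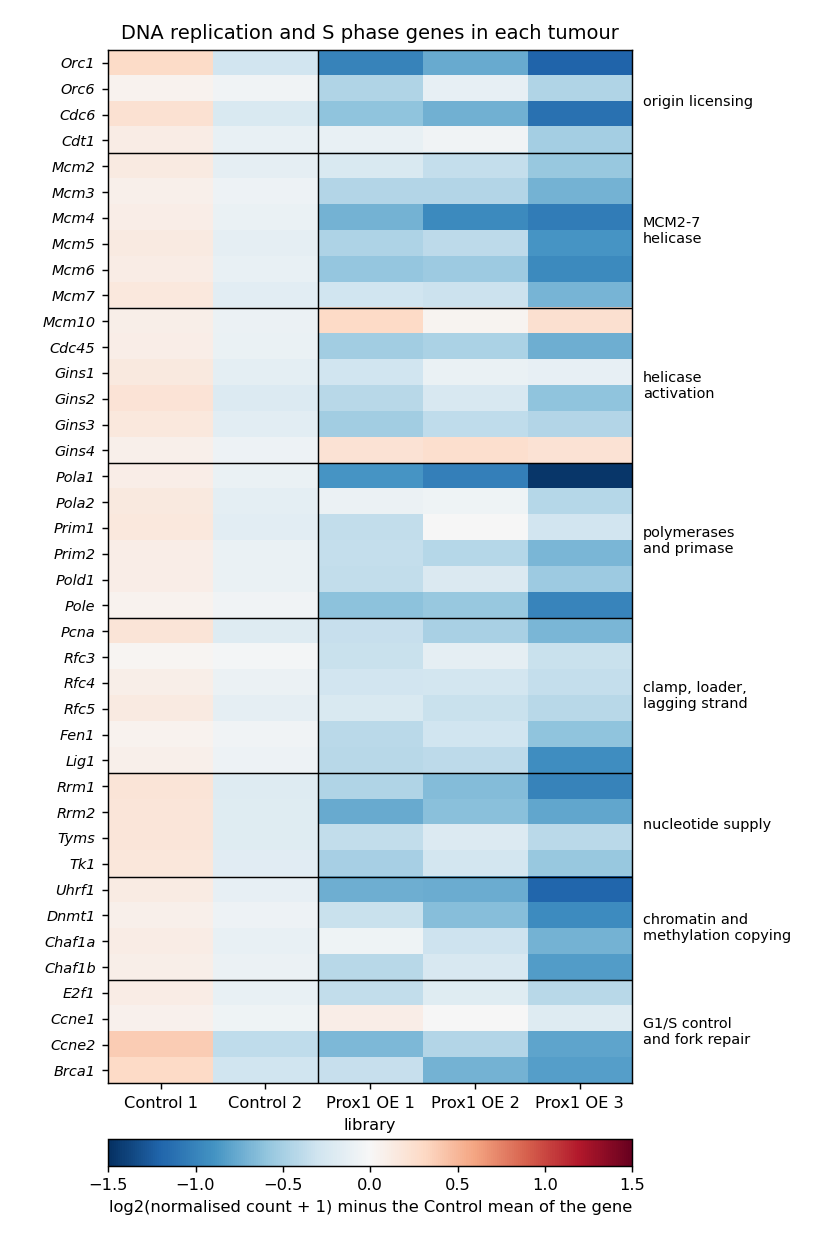
Each row is a replication gene and each column a tumour library, coloured by the log2(normalised count + 1) minus the gene's Control mean (blue lower, red higher; rows grouped by role). Prox1 OE 3 is the bluest column, holding the lowest value of 34 genes, and the rows for Mcm10 and Gins4 are the ones shaded red across the Prox1 OE columns.

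Reads of some members could include those of neighbours, since 12 members share exon bases with another gene that had reads, and whether counting used the strand was not given in the sources used here. The largest share was 78.8% of the exon bases of Fen1, with Gm10143, which had 3.5 to 7.1 normalised counts. Gins2 shared 67.3% with Gse1 (1865.0 and 1919.9 normalised counts in Control, 1693.2, 1362.9 and 1087.9 in Prox1 OE). Chaf1a shared 52.5% with Ubxn6 (2970.8 and 3174.5, then 3803.7, 4494.5 and 4456.9). Ccne2 shared 17.4% with Ints8 (1822.2 and 1593.6, then 1465.2, 1211.8 and 1304.3). Smaller shares lay with more abundant neighbours, at 12.7% of Rfc4 with Eif4a2 and 10.7% of Rfc5 with Wsb2. Further ones were 6.9% of Orc6 with Vps35, 6.0% of Cdc45 with Ufd1 and 5.4% of Fen1 with Tmem258. All of these lie on the opposite strand, and the values of the 12 members are uncertain to that extent.

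Some cell type markers moved between the groups as well, where 17.1% of all genes tested were called higher and 16.2% lower. Of 8 hepatocyte markers 7 rose (median log2 fold change 1.70), with summed levels of 720900 and 1181000 normalised counts in Control and 2402000 to 3722000 in Prox1 OE. Of 7 cholangiocyte (bile duct cell) markers 6 fell (median -1.21), with sums of 758000 to 827200 in Control and 523500 to 707500 in Prox1 OE, in that order here and for the further lists. Of 6 T and NK cell markers 5 rose (sums of 151.7 to 199.6 and 360.9 to 540.4), and 2 of 6 macrophage markers rose (sums of 18540 to 22100 and 27020 to 44330). For B and plasma cells 1 of 5 markers tested rose (20.0%, sums of 136.5 to 147.1 and 224.2 to 267.3). The same held for 1 of 5 erythroid markers (20.0%, 4940 to 7495 and 8412 to 17920) and 1 of 4 endothelial markers (25.0%, 6159 to 7456 and 6972 to 8932). These shares are near the 17.1% of all genes called higher. Stellate and fibroblast markers gave 2 of 5 higher and 1 lower (39160 to 41060 and 22800 to 26210), and of 5 neutrophil markers 2 were tested with 0 called (378.9 to 625.2 and 475.5 to 750.5), while Ly6g, Mpo and Elane were under the filter on low values. Relative to the Control mean, the median hepatocyte marker stood at -0.34 and 0.34 in Control 1 and 2 and at 1.26 to 2.09 in Prox1 OE (log2), highest in replicate 3. The part of changed cell mixture in the replication gene values was not tested.

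**Figure D2:**
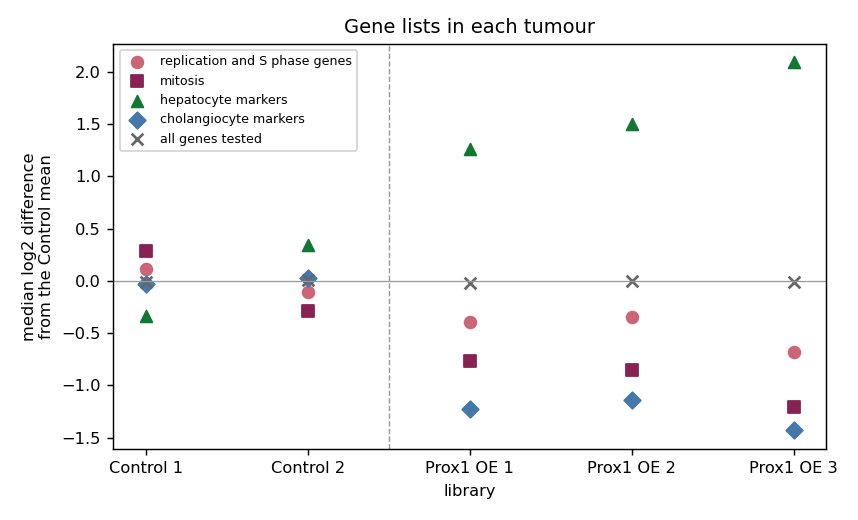
The vertical axis is the median log2 difference from the Control mean over the genes of a list, and the horizontal axis gives the 5 libraries, with a symbol per list. Replication genes run from 0.11 in Control 1 to -0.68 in Prox1 OE 3 and hepatocyte markers from -0.34 to 2.09, while the median of all genes tested lies near 0 in each library.

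Promoters of the members were searched for the 8 base letters that E2F factors are known to bind, TTTCCCGC, TTTCGCGC, TTTGCCGC and TTTGGCGC, on both strands, where matches may overlap each other. The search used RefSeq windows of GRCm38.p6 (the assembly of mm10) from 250 bases before to 50 after the start site. Of 33 members with such a window, 14 (42.4%) held a match, against 2.60% of 27025 genes with a window and 4.26% of the genes tested for expression. The share was 38.1% in a list of G1/S regulators, 25.0% in homologous recombination genes, 23.7% in other replication genes and 3.85% in mitosis genes. No window was given for Ccne2, Gins1, Gins2, Gins4, Mcm4, Pole and Prim2. The 14 members with a match had a median log2 fold change of -0.58 (from -1.13 to -0.23) with 9 called lower. The 19 without one had a median of -0.36 (from -0.72 to 0.19) with 5 called lower. Over all genes tested 16.2% were called lower, and the difference between members with and without a match was not tested. The search describes letters in a window and not binding. For the 9 members that fell, the 30 bases around the first match in reading direction are given below as sequence on the strand of the gene, 5′ to 3′, with the letters of that match in capitals (a further match that overlaps it in Mcm5 and Mcm6 is not marked):
Pola1: gtcatcacaggGCGCCAAAtgcactcccgc
Orc1: ttcggttagtgGCGCGAAAagttttctcct
Uhrf1: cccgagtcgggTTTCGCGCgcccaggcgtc
Cdc6: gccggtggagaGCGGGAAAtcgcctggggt
Mcm6: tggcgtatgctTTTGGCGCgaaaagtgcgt
Dnmt1: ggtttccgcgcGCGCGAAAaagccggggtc
Mcm5: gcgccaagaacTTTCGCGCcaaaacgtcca
Lig1: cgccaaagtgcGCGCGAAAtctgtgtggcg
Mcm3: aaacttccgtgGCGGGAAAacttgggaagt

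In GRCm38.p6 coordinates the Pola1 site lay at chrX:93632275-93632304 with its first capital 138 bases before the start, the Orc1 site at chr4:108579416-108579445 (27 before) and the Uhrf1 site at chr17:56304117-56304146 (185 before). The Cdc6 site lay at chr11:98908002-98908031 (138 before), the Mcm6 site at chr1:128359797-128359826 (110 before) and the Dnmt1 site at chr9:20952824-20952853 (219 before). The Mcm5 site lay at chr8:75109345-75109374 (153 before), while those of Lig1 at chr7:13278841-13278870 and Mcm3 at chr1:20820275-20820304 lay 26 and 19 bases after the start, in the first transcribed bases. Pola1, Mcm6, Dnmt1 and Mcm3 lie on the minus strand. The letters TTTGAA or TTCGAA of the CHR element are known from promoters of genes that peak in G2 and mitosis. They occurred in 21.2% of the members with a window, against 21.7% of all genes with a window and 17.1% of those tested for expression. The share was 33.3% in G1/S regulators, 18.4% in other replication genes, 16.7% in homologous recombination genes and 80.8% in a list of mitosis genes. The CCAAT letters occurred in 60.6% of the members with a window, against 42.2% of the genes tested, 66.7% of the homologous recombination genes and 80.8% of the mitosis genes.

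Origin licensing genes had log2 fold changes from -0.99 to -0.23, and differences between these genes were not tested. Of 4 members 2 fell, where 16.2% of all genes were called lower, and the median log2 fold change of the 4 was -0.58. Orc1, the large ATPase subunit of the origin recognition complex, had 171.7 and 114.4 normalised counts in Control and 69.5, 82.6 and 60.2 in Prox1 OE, a fall of 0.99 on the log2 scale (SE 0.28, limma adjusted p = 0.033). The groups did not overlap, and Control 1 stood well above Control 2. Cdc6, the loader that binds this complex, had 674.5 and 487.4 normalised counts in Control and 376.3, 348.1 and 262.7 in Prox1 OE (log2 fold change -0.82 ± 0.22, SE, adjusted p = 0.028), again without overlap and lowest in Prox1 OE 3. The promoters of both held the E2F letters shown above. Cdt1, which brings the MCM ring to CDC6, was not called, with 985.1 and 845.1 normalised counts against 841.5, 879.1 and 640.0 (log2 fold change -0.23 ± 0.18, adjusted p = 0.35). Prox1 OE 2 lay between the Control libraries for this gene, and its 95% interval ran from -0.64 to 0.18. Orc6, a small subunit of the origin complex, was not called at -0.34 (adjusted p = 0.11).

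All 6 subunits of the MCM2-7 ring were lower in every Prox1 OE library than in both Control libraries, as were 32.4% of all genes tested. The log2 fold changes of the 6 ran from -0.90 to -0.39. Mcm4, Mcm6, Mcm5 and Mcm3 fell (66.7%, against 16.2% of all genes), and Mcm7 (-0.44, adjusted p = 0.073) and Mcm2 (-0.39, adjusted p = 0.077) were not called. Mcm4 (ENSMUSG00000022673, chr16:15623897-15637400) had 2974 and 2601 normalised counts in Control and 1703, 1437 and 1343 in Prox1 OE, a log2 fold change of -0.90 ± 0.14 (SE, adjusted p = 0.0045). The gene fell by 46.5% in linear terms. It was called under 15 of the 16 alternatives. Mcm6 had 7380 and 6363 normalised counts in Control and 4598, 4709 and 3537 in Prox1 OE (-0.69 ± 0.16, adjusted p = 0.015), with Prox1 OE 3 well below the other two. Mcm2 had 3486 and 2874 against 2691, 2466 and 2127, where the gap between Control 2 and Prox1 OE 1 was smaller than the gap between the Control libraries. Within a library, where scaling cancels, the ratio of Mcm4 to Mcm2 normalised counts was 0.853 and 0.905 in Control and 0.633, 0.583 and 0.631 in Prox1 OE. This pair was chosen after its values were seen.

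Per kb of principal transcript, Mcm6 was the most abundant ring subunit at 2361 ± 247 normalised counts per kb in Control and 1471 ± 222 in Prox1 OE (mean ± SD, with n = 2 and n = 3 here and below). Mcm4 was the least abundant at 777 ± 73.6 and 416 ± 52.1. Mcm7 came second at 1504 ± 226 in Control. Mcm5 and Mcm3, at 1137 ± 144 and 1101 ± 82.5, were neighbours whose Control values overlapped, and Mcm2 followed at 943 ± 128.

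**Figure D3:**
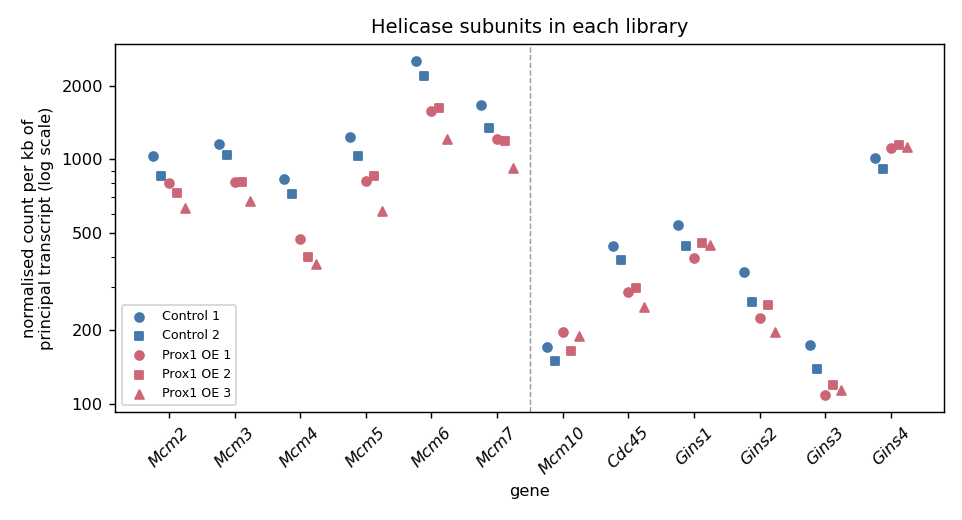
Levels of the MCM2-7 ring subunits (left of the dashed line) and of the helicase activation factors (right) in each library, in normalised counts per kb of principal transcript on a log axis. For each ring subunit the 3 Prox1 OE points lie below both Control points, whereas those of Gins4 lie above them and those of Mcm10 and Gins1 overlap them.

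The factors that turn the ring into an active helicase gave values of both signs. Of 6 members 1 fell (16.7%, near the 16.2% of all genes), the median log2 fold change was -0.30, and the members ranged from -0.58 to 0.23. Cdc45 had 951.4 and 830.7 normalised counts in Control and 617.6, 637.2 and 534.7 in Prox1 OE (-0.58 ± 0.15, SE, adjusted p = 0.022), with no overlap. The 4 GINS subunits, which form a single complex, were not called. Gins3 had 439.5 and 350.9 normalised counts against 274.0, 302.1 and 288.2 (-0.45 ± 0.17, adjusted p = 0.085), and Gins2 stood at -0.42 (adjusted p = 0.098). Gins1 had 586.6 and 478.9 against 431.5, 495.6 and 486.1 (-0.17 ± 0.16, adjusted p = 0.44), and the groups overlapped.

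Gins4 and Mcm10 stood out as the members with positive values, and were singled out after their values were seen. Gins4 had 1362 and 1232 normalised counts in Control and 1503, 1540 and 1511 in Prox1 OE (log2 fold change 0.23 ± 0.11, adjusted p = 0.16). The Prox1 OE libraries lay close together and above both Control libraries, but the gene was not called. Mcm10, which binds the ring and helps it to unwind DNA, had 829.8 and 729.0 against 959.1, 797.7 and 918.9 (0.19 ± 0.14, adjusted p = 0.33), with overlap. Both turned negative, at -0.20 and -0.24, when libraries were scaled to the total count, so that the direction of either depended on the scaling. Ratios within a library do not depend on it, but they do not give the direction of either gene. The divisors Gins3 (-0.45) and Cdc45 (-0.58) had the lowest log2 fold changes of the group, so higher ratios followed from the pairs picked. Gins4 over Gins3 was 3.10 and 3.51 in Control and 5.49, 5.10 and 5.25 in Prox1 OE, and Mcm10 over Cdc45 was 0.872 and 0.878 in Control and 1.55, 1.25 and 1.72 in Prox1 OE.

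Polymerase subunits held the member with the greatest change in the reported fit, Pola1. Without Control replicate 2, Orc1 (-1.28) lay below Pola1 (-1.23). Of 6 genes 3 fell, where 16.2% of all genes were called lower, and the median log2 fold change of the 6 was -0.43. Pola1 (ENSMUSG00000006678, chrX:93304767-93632155), the catalytic subunit of polymerase alpha, had 2176 and 1882 normalised counts in Control and 1094, 991.2 and 733.8 in Prox1 OE. Its promoter was among those with E2F letters. The log2 fold change was -1.13 ± 0.19 (SE, adjusted p = 0.0053), and in linear terms it fell by 54.2%. It was called under 15 of 16 alternatives. Pola2, the accessory subunit of the same enzyme, had 1250 and 1027 against 1062, 1083 and 841.4 (-0.20 ± 0.16, adjusted p = 0.39), and the groups overlapped. The ratio of Pola1 to Pola2 was 1.74 and 1.83 in the Control libraries and 1.03, 0.915 and 0.872 in the Prox1 OE libraries, a pair chosen after its values were seen.

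Pole, the catalytic subunit of the leading strand polymerase epsilon, had 1432 and 1323 normalised counts in Control and 897.7, 927.5 and 690.9 in Prox1 OE (-0.73 ± 0.16, adjusted p = 0.014). Pold1, its counterpart in polymerase delta, was not called at -0.38 (adjusted p = 0.080). The primase subunits gave -0.49 for Prim2 (adjusted p = 0.049, called under 6 of 16 alternatives) and -0.22 for Prim1 (adjusted p = 0.31). The groups overlapped for Prim1, which had 1552 and 1256 normalised counts against 1084, 1386 and 1142.

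Every member of the clamp, clamp loader and lagging strand group lay below both Control values in all Prox1 OE libraries. Over all genes tested, 32.4% did so. Of the 6 members 3 fell, where 16.2% of all genes were called lower (median log2 fold change of the members -0.38). Pcna, the sliding clamp, had 7600 and 5783 normalised counts in Control and 5209, 4721 and 4135 in Prox1 OE (-0.51 ± 0.16, SE, adjusted p = 0.045). Its log2 fold change was -0.31 without Control replicate 1 and -0.70 without Control replicate 2. Pcna was the most abundant member per length, at 4408 ± 846 normalised counts per kb in Control and 3088 ± 354 in Prox1 OE (mean ± SD). Lig1, the ligase that joins Okazaki fragments, had 6378 and 5706 normalised counts against 4510, 4579 and 3163 (-0.58 ± 0.18, adjusted p = 0.042), with Prox1 OE 3 far below the others. Fen1, the nuclease that trims those fragments, fell by 0.44 on the log2 scale (adjusted p = 0.042). The clamp loader subunits were not called, at -0.27 for Rfc3, -0.30 for Rfc4 and -0.33 for Rfc5 (adjusted p = 0.14, 0.11 and 0.093). Rfc3 had 1282 and 1223 normalised counts in Control and 996.9, 1136 and 990.7 in Prox1 OE, so that Prox1 OE 2 lay close to the Control libraries.

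Where 16.2% of all genes were called lower, 2 of 4 nucleotide supply genes fell, both subunits of ribonucleotide reductase. Rrm2, its cell cycle regulated small subunit, had 4975 and 3892 normalised counts in Control and 2598, 2854 and 2554 in Prox1 OE (-0.72 ± 0.14, SE, adjusted p = 0.0083). Rrm1, the large subunit, had 5330 and 4046 against 3398, 2951 and 2315 (-0.70 ± 0.19, adjusted p = 0.028). Both fell without overlap, and Rrm2 was among the most abundant members per length at 2022 ± 350 normalised counts per kb in Control. Tyms, thymidylate synthase, had 2580 and 2015 normalised counts against 1772, 1982 and 1720 (-0.32 ± 0.14, adjusted p = 0.12). Its Prox1 OE 2 value lay just below Control 2, and Tk1, the thymidine salvage kinase, was not called either (-0.45, adjusted p = 0.058).

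Of 4 members that copy chromatin and DNA methylation behind the fork 2 fell, where 16.2% of all genes were called lower. Uhrf1 (ENSMUSG00000001228, chr17:56303321-56323486), which recognises half-methylated DNA after replication, had 4164 and 3485 normalised counts in Control and 2297, 2270 and 1675 in Prox1 OE. Its log2 fold change was -0.89 ± 0.17 (SE, adjusted p = 0.0086), and in linear terms it fell by 45.9%. Dnmt1, the maintenance methyltransferase that UHRF1 brings to DNA, had 3939 and 3560 against 2968, 2404 and 1950 (-0.64 ± 0.18, adjusted p = 0.031), with the Prox1 OE libraries spread more widely than the Control ones. The large subunits of the histone chaperone CAF-1 were not called. Chaf1a had 1610 and 1384 against 1425, 1202 and 913.1 (-0.36 ± 0.20, adjusted p = 0.19), with overlap, and Chaf1b stood at -0.50 (adjusted p = 0.081).

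None of the 4 members of G1/S control and fork repair was called, where 33.3% of all genes tested were called in either direction. Ccne2 had 485.5 and 284.8 normalised counts in Control and 233.1, 274.9 and 215.3 in Prox1 OE (-0.63 ± 0.26, SE, adjusted p = 0.095). Brca1, which protects stalled forks and repairs breaks, had 1107 and 732.4 against 709.6, 549.9 and 509.2 (-0.63 ± 0.22, adjusted p = 0.066). In both genes the Control libraries lay farther apart than Control 2 and the nearest Prox1 OE library. Without Control replicate 1 the log2 fold changes were -0.25 for Ccne2 and -0.33 for Brca1, and without Control replicate 2 Ccne2 stood at -1.01. Ccne1, the other cyclin E, was the member with the smallest difference, at 415.7 and 380.6 against 425.4, 396.5 and 347.2 (-0.03 ± 0.16, adjusted p = 0.89), with a 95% interval from -0.42 to 0.35. E2f1, which encodes an activator of S phase genes, stood at -0.32 (adjusted p = 0.11).

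**Figure D4:**
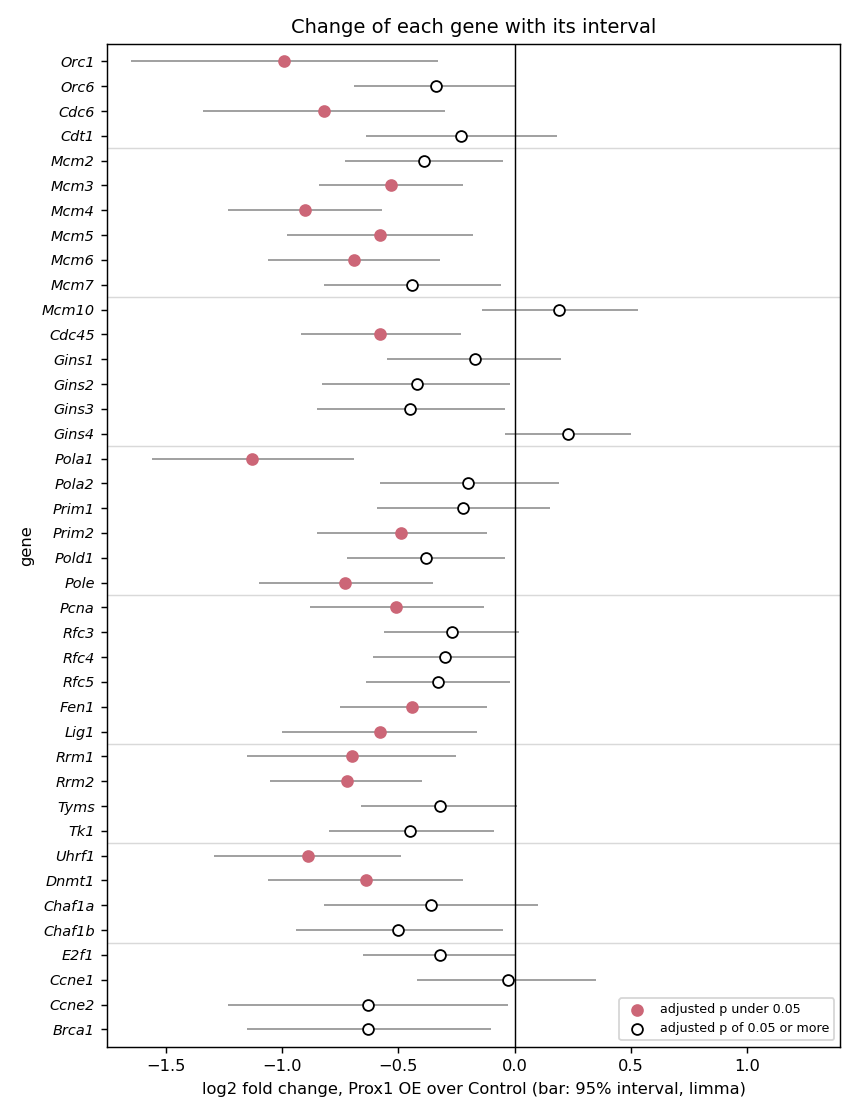
Points give the log2 fold change of each of the 40 genes (Prox1 OE over Control, horizontal axis) with its 95% interval from limma, in the order of their roles, filled where the adjusted p is under 0.05. Filled points number 17 and all lie left of 0, with Pola1 at -1.13 farthest left.

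Other genes of the same pathways were counted from lists that hold none of the 40 members. Of 46 other replication genes 12 fell and 2 rose (26.1% lower and 4.35% higher, against 16.2% and 17.1% of all genes; median log2 fold change -0.29). Ticrr, which triggers helicase activation with TOPBP1, fell by 1.20 on the log2 scale (adjusted p = 0.0067), and Pclaf, a PCNA binding factor, fell by 1.01 (adjusted p = 0.0051). Pold4, the small subunit of polymerase delta, rose by 0.65 (adjusted p = 0.015). With the total count as scaling 0 of the 46 were called higher, and 37 of the 46 were called lower. Without Prox1 OE replicate 2 or 3 the list gave 6 falls, where 10.1% and 11.4% of all genes were called lower. Without Prox1 OE replicate 1 it gave 17, where 22% of all genes were called lower. Fits without a Control library leave 1 Control tumour, so no count of calls is given for them here.

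Among 27 regulators of the G1/S step 16 fell and 1 rose (59.3% lower and 3.70% higher, against 16.2% and 17.1% of all genes), with a median log2 fold change of -0.57. The falls were led by the inhibitors of CDK4 and CDK6 encoded by Cdkn2b (-1.26, adjusted p = 0.0066) and Cdkn2a (-1.13, adjusted p = 0.049), which brake the cell cycle. E2f2, an E2F activator, rose by 0.56 (adjusted p = 0.048), and Cdkn1c, another brake, was not called at 0.65 (adjusted p = 0.17). E2f2 was called in 7 of 16 alternatives and was not called with the total count as scaling. The 16 falls became 2 and 5 without Control replicate 1 and 2 (3.63% and 5.54% of all genes lower), and 9 without Prox1 OE replicate 2 (10.1%).

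Of 17 homologous recombination genes 8 fell and 1 rose (47.1% lower and 5.88% higher, against 16.2% and 17.1% of all genes; median log2 fold change -0.57). Fanci and Fancd2, partners in the repair of DNA crosslinks, fell by 1.07 and 1.01 on the log2 scale (adjusted p = 0.018 and 0.016). Rad51b, which acts in strand exchange, rose by 0.82 (adjusted p = 0.0077), and Xrcc3, of the same pathway, was not called at 0.42 (adjusted p = 0.10). The 8 falls became 0 and 3 without Control replicate 1 and 2 (3.63% and 5.54% of all genes), and 4 and 5 without Prox1 OE replicate 2 and 3 (10.1% and 11.4%).

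Mitosis genes gave the lowest median of these lists, -0.91. Of 30 genes 29 fell (96.7%, against 16.2% of all genes) and 0 rose. In all 30 every Prox1 OE library lay below both Control libraries, as in 32.4% of all genes tested. Ect2 and Anln, which act in cytokinesis, fell by 1.39 and 1.36 (adjusted p = 0.015 and 0.0033). The ratio of the geometric mean of the mitosis genes to that of the replication members was 1.87 and 1.51 in Control and 1.28, 1.19 and 1.15 in Prox1 OE, lower in every Prox1 OE library than in both Control libraries. Without Control replicate 1 the median of the mitosis genes was -0.65, and without Control replicate 2 it was -1.23. Without Prox1 OE replicate 1, 27 of the 30 were called lower, where 22% of all genes were. Without Prox1 OE replicate 2 or 3 it was 20, where 10.1% and 11.4% of all genes were called lower.

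**Figure D5:**
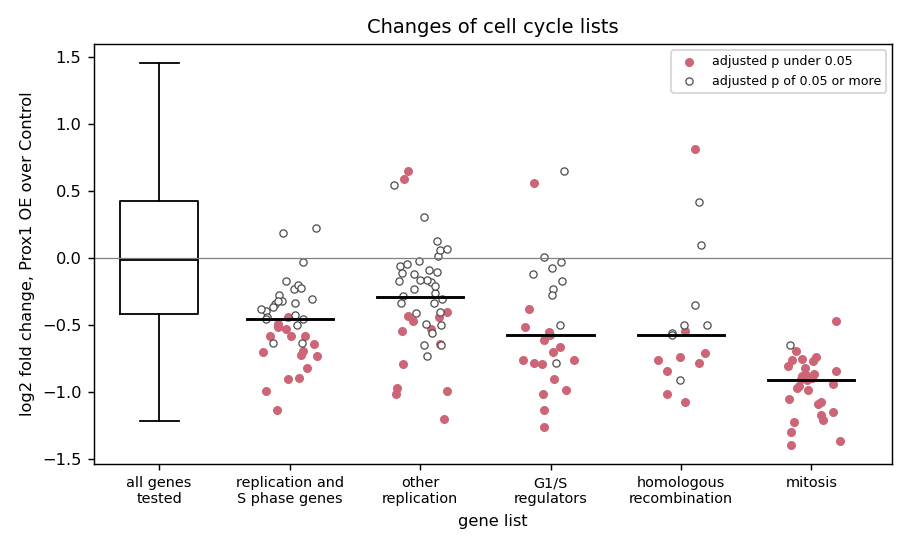
Each point is a gene at its log2 fold change (Prox1 OE over Control, vertical axis) in the 5 gene lists, filled where the adjusted p is under 0.05, with the list median as a bar. The box gives the quartiles and the 5th and 95th percentiles of all 17105 genes tested. Medians run from -0.29 for other replication genes to -0.91 for mitosis.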

How the data were processed

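Bulk RNA-seq of 5 Akt/Notch liver tumours (2 Control, 3 Prox1 OE) was used. The authors made strand-preserving dUTP libraries, read them as pairs of 100 bases and mapped them to mm10 with STAR. The counting tool, its strand setting and its handling of shared reads are not given in the sources used here. The deposited values are normalised counts, a signal made by dividing each gene's reads by the DESeq2 size factor of its library. Low values showed that 1 read stood for 0.822 to 1.18 normalised counts, and 100% of values were whole reads on that basis (tolerance 0.01), giving 48740863 to 56629477 reads per library. Floors of 3 reads (2.46 to 3.54 normalised counts) cover counting error only, and no member was at the floor. No column was unassigned (0). The authors also deposited their own DESeq2 comparison (means, shrunken log2 fold changes, p-values), which was not used.

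Symbols matched 55137 identifiers (99.5%). Genes with a mean of at least 10 were tested with limma 3.58.1 in R 4.3.3 (lmFit, eBayes with trend, no covariate) on log2(normalised count + 1), two-sided, Benjamini-Hochberg adjusted over all 17105 genes, at 0.05. This scale understates changes of low genes. The labels do not say that samples came from separate animals, so p-values measure the spread between these samples. Counts over the lists were read beside the same counts over all genes, with no test of a list. Levels were compared between genes per kb of the principal transcript. Promoter windows came from RefSeq tables for GRCm38.p6. Scripts were tested on simulated data.

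Alternatives were TMM, upper-quartile and total-count scaling, pseudocounts of 0.1 and 10, no filter or a minimum mean of 50, a fit with no trend, the count models of DESeq2 1.42.0 and edgeR 4.0.16 (quasi-likelihood) run on whole reads, a replicate block, and each library left out. All 40 members are named with their change where described. Values in every library are given, per role, for the 2 members with the largest absolute log2 fold change and the one with the smallest, and of each other list the 2 largest rises and falls are named, apart from a gene not reported here. The members and lists were chosen with earlier results of these data known.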

Additional observations from a re-analysis of the deposited data

How the results depend on the processing

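Over 40 members and 16 alternatives, 534 of 640 log2 fold changes kept their direction and side of the threshold, 75 lost the call, 26 gained it and 5 reversed. The reversals were Mcm10 (-0.24) and Gins4 (-0.20) with the total count, and Ccne1 with the replicate block (0.05). Ccne1 also reversed without Control replicate 1 (0.03) and without Prox1 OE replicate 3 (0.05), and its fits with 1 library left out ran from -0.10 to 0.05. The replicate block also left out Prox1 OE 3, so its value for Ccne1 repeats that of the fit without this library. No member was called higher under any alternative. Members called lower (17, against 16.2% of all genes) numbered 8 without the trend (11.3%) and 9 without the filter (7.95%). They numbered 37 with the total count (40%) and 7 to 19 with 1 Prox1 OE library left out (10.1% to 22%). The median of the members (-0.45) was -0.88 with the total count and -0.60 to -0.29 with 1 library left out. Genes called over all genes (5702) ranged from 1511 to 7494 with 1 library left out.

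Other replication genes called higher (2) numbered 0 with the total count and 0 to 4 with 1 library left out. Those called lower (12) numbered 4 without the trend, 7 without the filter, 37 with the total count and 0 to 17 with 1 library left out. G1/S regulators called higher (1) numbered 0 without the trend, without the filter, with a pseudocount of 10, the total count or upper-quartile factors, 2 with the replicate block and 0 to 1 with 1 library left out. Those called lower (16) numbered 25 with the total count and 2 to 19 with 1 library left out. Homologous recombination genes called higher (1) numbered 0 with the total count and 0 to 1 with 1 library left out. Those called lower (8) numbered 5 without the trend, 14 with the total count and 0 to 12 with 1 library left out. Mitosis genes called lower (29) numbered 17 without the trend and 3 to 29 with 1 library left out. The causes were not tested. Leaving out a Control library leaves 1 in that arm, which is assumed to vary like the other group.

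The replicate numbers are shared between the groups, but nothing in the labels ties them, and the deviations of the numbered pairs correlated at 0.14 and 0.02 over 17105 genes. The fit with the replicate number as a block used replicates 1 and 2 of each group only, so Prox1 OE 3 was left out. In it 13 members were called lower, 12 of them also called in the reported fit. The members' median was -0.37, as in the fit without Prox1 OE replicate 3, so the effect of the block cannot be told apart from that of the missing library.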
